A study of Mus musculus with 9 samples.

Results

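Vascular endothelial growth factor (VEGF) signalling in the endothelium of mouse white adipose tissue was examined through 8 genes, 3 ligands (Vegfa, Vegfb and Vegfc), the 3 receptor tyrosine kinases (Kdr, Flt1 and Flt4) and the 2 neuropilin co-receptors (Nrp1 and Nrp2). The genes were picked by name from their known place in the pathway, with earlier results of these data known. Of the 8, 7 were found among the 11802 genes of the deposited expression table. Vegfb was not analysed here, nor were the related ligands Pgf and Vegfd. RNA was sequenced after ribosome capture (RiboTag): Cre recombination marks the ribosomes of one cell type with an HA tag on Rpl22, and the tagged ribosomes are then immunoprecipitated together with the RNA they carry. Cre was driven by Pdgfb-iCreERT2, an inducible driver that acts in endothelial cells. The 5 libraries labelled KO came from Pdgfb-iCreERT2:Mfn2ideltaEC:Rpl22HA mice, which lack Mfn2 in endothelial cells per the labels, and the 4 libraries labelled WT from Pdgfb-iCreERT2:Rpl22HA mice with Mfn2 present. Both groups thus carried the inducible Cre and the tagged ribosome. Mfn2 encodes mitofusin 2, which fuses the outer membranes of mitochondria. No source used here gives the age or sex of the mice, the dosing of the inducer, or whether a library came from 1 animal or a pool, and the p-values thus cover the spread among libraries, which may be technical.

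VEGF-A, secreted in adipose tissue by adipocytes and other stromal cells, binds the receptors encoded by Kdr (VEGFR2) and Flt1 (VEGFR1) on endothelial cells. VEGFR2 carries the main signal for endothelial survival, migration, division and permeability, while VEGFR1 binds VEGF-A tightly with weak kinase activity and acts largely as a decoy, also in a soluble form made from the same gene. VEGF-C acts mainly through VEGFR3, the product of Flt4, which is best known from lymphatic endothelium and is also found in blood capillaries. Neuropilin 1 and neuropilin 2 hold VEGF ligands beside these receptors and also bind class 3 semaphorins.

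The libraries held between 1034753 and 3829356 listed reads. The mitochondrial ribosomal RNAs mt-Rnr1 and mt-Rnr2 took 12.8% to 25.2% of listed reads in the libraries labelled KO and 13.9% to 64.8% in those labelled WT, with WT replicate 4 at the low end. Across all genes the library medians of log2(CPM + 1) were 0.98 higher in the libraries labelled KO. Each comparison is therefore given first in the deposited CPM (read counts scaled to the size of the library) and then relative to the library median, which was subtracted from the log2 values. The targeted gene Mfn2 averaged 66.7 ± 37.0 CPM (SD) over the 5 KO libraries and 36.1 ± 15.0 CPM (SD) over the 4 WT libraries, with a relative log2 fold change of −0.16 (limma adjusted p = 0.898). Its level did not separate the groups, and every direction below therefore rests on the labels. Which exons were deleted is not stated there, and reads from the rest of the gene would not show the deletion.

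Endothelial RNA was present in every library. The 16 endothelial identity genes (none of them a member of the VEGF set) summed to 2480 to 5688 CPM in the libraries labelled KO and 914 to 3112 CPM in those labelled WT (exact two-sided permutation p = 0.0476), and none was at 0 in any library. Markers of other cell types were present as well. The summed CPM of mural cell markers and of skeletal muscle markers lay higher in every KO library than in any WT library. Of all genes, 18.7% had this arrangement in CPM. Relative to the library median, the mean log2 values of both lists overlapped between the groups. They were 0.37 to 1.18 in KO and −0.41 to 1.02 in WT for mural cells, and −0.33 to 4.65 in KO and −1.33 to −0.09 in WT for skeletal muscle. Of 10 pericyte and smooth muscle markers, 7 were measured, none was at 0 in any library, and they summed to 298 to 574 CPM in KO and 116 to 242 CPM in WT (exact two-sided permutation p = 0.0159). The 6 of 8 skeletal muscle markers that were measured summed to 193 to 6302 CPM in KO and 39.6 to 108 CPM in WT (exact two-sided permutation p = 0.302). All 6 were called higher in CPM (limma adjusted p under 0.05), beside 32.0% of all genes. Relative to the library median 0 of the 6 were called, and 5 were higher at an unadjusted p under 0.05, beside 5.99% of all genes. Tnni2 and Actn3 were at 0 in at least 1 library. The sums overlapped between the groups for the 12 adipocyte markers (1880 to 4609 CPM in KO and 1262 to 2659 CPM in WT), 9 of 10 fibroblast and progenitor markers (2367 to 11020 CPM in KO and 2517 to 8228 CPM in WT) and the 10 macrophage markers (675 to 1458 CPM in KO and 263 to 1044 CPM in WT). Only 2 of 6 lymphatic markers (Lyve1 and Reln) were measured. The part of other cell types in the levels of the VEGF genes was not tested beyond the adipocyte covariate described below.

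Per kilobase of exon, Kdr, Vegfa and Nrp1 were the 3 most abundant members in both groups. In the libraries labelled KO the mean level was 131.5 ± 56.0 CPM per kb for Kdr, 116.0 ± 107.2 for Vegfa, 79.9 ± 26.7 for Nrp1, 29.4 ± 13.3 for Flt1, 18.8 ± 12.6 for Nrp2, 6.04 ± 3.82 for Flt4 and 3.98 ± 3.08 for Vegfc (SD, n = 5). In the libraries labelled WT the order was Vegfa at 70.6 ± 24.5 CPM per kb, Kdr at 39.9 ± 22.3, Nrp1 at 32.3 ± 18.6, Flt1 at 10.6 ± 5.97, Nrp2 at 5.48 ± 2.24, Vegfc at 2.75 ± 3.75 and Flt4 at 1.59 ± 0.446 (SD, n = 4). The first 5 places held in each of the 4 WT libraries, while Vegfc lay above Flt4 in 2 of the 4. In the libraries labelled KO, Kdr lay above Vegfa in 3 of 5 and Vegfa above Nrp1 in 2 of 5, so these neighbours did not differ beyond their spread. Nrp1 lay above Flt1, and Nrp2 above Flt4, in all 5. With the longest annotated transcript as the length instead of all exons, Nrp1 moved to the first place in the libraries labelled KO and to the second in those labelled WT. Among all genes with a known length, Kdr stood at percentiles of 95.4 to 98.2 in the KO libraries and 94.3 to 95.1 in the WT libraries.

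Kdr, Flt1, Flt4, Nrp1 and Nrp2 were each 2.47 to 3.80 times as high in mean CPM in the libraries labelled KO, and all 5 rose in the deposited CPM by limma's moderated test (Benjamini-Hochberg adjusted p under 0.05). The background of that count is high, since 32.0% of all genes rose on the same scale and 0.203% fell. Of the 16 endothelial identity genes, 13 rose on that scale. Relative to the library medians none of the 7 members passed the test, in a fit where 0.0339% of all genes rose and 0.0763% fell, although the log2 fold changes of these 5 genes stayed above 0. Kdr and Nrp2 had an unadjusted p under 0.05 there (2 of 7, both higher), against 5.99% of all genes higher and 5.69% lower at the same threshold, and edgeR and DESeq2 on the recovered reads called 0 members (DESeq2 gave Vegfc no adjusted p). An exact two-sided permutation test of each gene's CPM alone gave p = 0.0397 for Kdr, 0.0476 for Flt1 and for Nrp1, 0.0238 for Nrp2 and 0.0635 for Flt4. These p-values were not adjusted over the members. Leaving out 1 library at a time (9 cases) raised p to 0.05 or more in 7 cases for Kdr. It did so in 8 cases for Flt1, 8 for Nrp1 and 4 for Nrp2, while Flt4 fell under 0.05 in 1. In bulk captures, more endothelial RNA in a library and more of a gene's RNA per endothelial cell cannot be told apart.

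The main signalling receptor Kdr had 763, 590, 1798, 1275 and 1511 CPM in KO replicates 1 to 5, against 194, 315, 277 and 653 CPM in WT replicates 1 to 4. Its 4 highest values all came from libraries labelled KO, and the groups overlapped only between KO replicate 2 and WT replicate 4. The mean was 1187 ± 505 CPM (SD, n = 5) in KO and 360 ± 202 CPM (SD, n = 4) in WT, with a log2 fold change of 1.75 (95% interval 0.87 to 2.62, limma adjusted p = 0.00753). On the relative scale the log2 fold change was 0.77 (95% interval 0.14 to 1.41), which had an unadjusted p of 0.0198 and an adjusted p of 0.326 (limma).

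For Flt1, the gene of the decoy receptor VEGFR1, the 5 KO libraries had 236, 206, 609, 394 and 543 CPM, against 70.7, 147, 98.8 and 254 CPM in the 4 WT libraries. KO replicates 3, 4 and 5 lay above all WT libraries, while KO replicates 1 and 2 lay below WT replicate 4. Its log2 fold change was 1.51 (95% interval 0.66 to 2.36, limma adjusted p = 0.0121) in CPM and 0.53 (95% interval −0.10 to 1.16, adjusted p = 0.519) on the relative scale. The values are for the whole gene, so the full-length and soluble forms cannot be told apart.

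Flt4, the VEGF-C receptor gene, was the scarcest receptor, with 86, 35, 147, 95 and 378 reads in KO replicates 1 to 5 and 23, 26, 26 and 19 reads in WT replicates 1 to 4. These reads made 26.1, 16.7, 53.0, 55.6 and 97.2 CPM in the libraries labelled KO, against 10.4, 10.3, 13.7 and 18.1 CPM in those labelled WT. Every KO library but replicate 2 lay above all WT libraries. Its log2 fold change was 1.64 (95% interval 0.64 to 2.64, limma adjusted p = 0.0172) in CPM and 0.66 (95% interval −0.19 to 1.52, adjusted p = 0.560) on the relative scale. The lymphatic markers Lyve1 and Reln together had 17.6 to 85.5 CPM in KO and 4.73 to 37.1 CPM in WT. Their sum was highest in KO replicate 4, and Flt4 was highest in KO replicate 5. Lyve1 made up 70.9 of the 85.5 CPM in KO replicate 4, and Reln was at 0 in at least 1 library. So few markers cannot measure lymphatic content, and its part in the Flt4 level was not tested.

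The 250 bases before and 50 after the transcription start are shown for Kdr, Flt1 and Vegfa. Kdr and Flt1 varied together and Vegfa varied apart from them, and any part of these sequences in that pattern was not tested. The sequences come from RefSeq (GRCm38.p6), where all 7 measured members were found. They lie on the minus strand at chr5:75978406-75978705, chr5:147725962-147726261 and chr17:46032328-46032627. Capitals mark the letters CNGGAA on either strand, a form of the core bound by ETS factors, which are common regulators of endothelial genes.
Kdr: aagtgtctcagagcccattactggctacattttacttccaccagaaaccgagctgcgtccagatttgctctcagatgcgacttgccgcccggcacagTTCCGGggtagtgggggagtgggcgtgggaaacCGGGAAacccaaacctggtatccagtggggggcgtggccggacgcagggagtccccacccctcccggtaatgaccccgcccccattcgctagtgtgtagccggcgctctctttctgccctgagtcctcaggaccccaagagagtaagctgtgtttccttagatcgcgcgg
Flt1: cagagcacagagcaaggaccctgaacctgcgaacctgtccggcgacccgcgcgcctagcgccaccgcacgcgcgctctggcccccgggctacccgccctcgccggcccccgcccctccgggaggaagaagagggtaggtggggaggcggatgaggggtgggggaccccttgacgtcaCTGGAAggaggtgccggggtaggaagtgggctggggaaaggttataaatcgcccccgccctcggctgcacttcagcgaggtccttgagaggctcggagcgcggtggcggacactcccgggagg
Vegfa: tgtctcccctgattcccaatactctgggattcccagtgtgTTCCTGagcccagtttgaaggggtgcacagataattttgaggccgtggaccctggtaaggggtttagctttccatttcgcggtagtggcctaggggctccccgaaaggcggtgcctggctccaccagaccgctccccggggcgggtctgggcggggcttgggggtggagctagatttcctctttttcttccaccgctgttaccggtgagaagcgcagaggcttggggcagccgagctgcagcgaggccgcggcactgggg
The motif was found 2 times in the Kdr window and 1 time in each of the Flt1 and Vegfa windows, and 61.7% of all 32851 promoter windows of this length held it. The GC box letters GGGCGG, searched on both strands, occurred 2, 3 and 2 times in the Kdr, Flt1 and Vegfa windows, against a share of 35.7% of all windows with at least 1. The hypoxia response letters ACGTG, also searched on both strands, were in none of the 7 members' windows and in 19.6% of all windows. Sequence outside these windows was not searched, so sites farther from the start would be missed. No ETS match shared a base with a GC box match in any of the 7 windows. A match describes letters only.

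**Figure D1:**
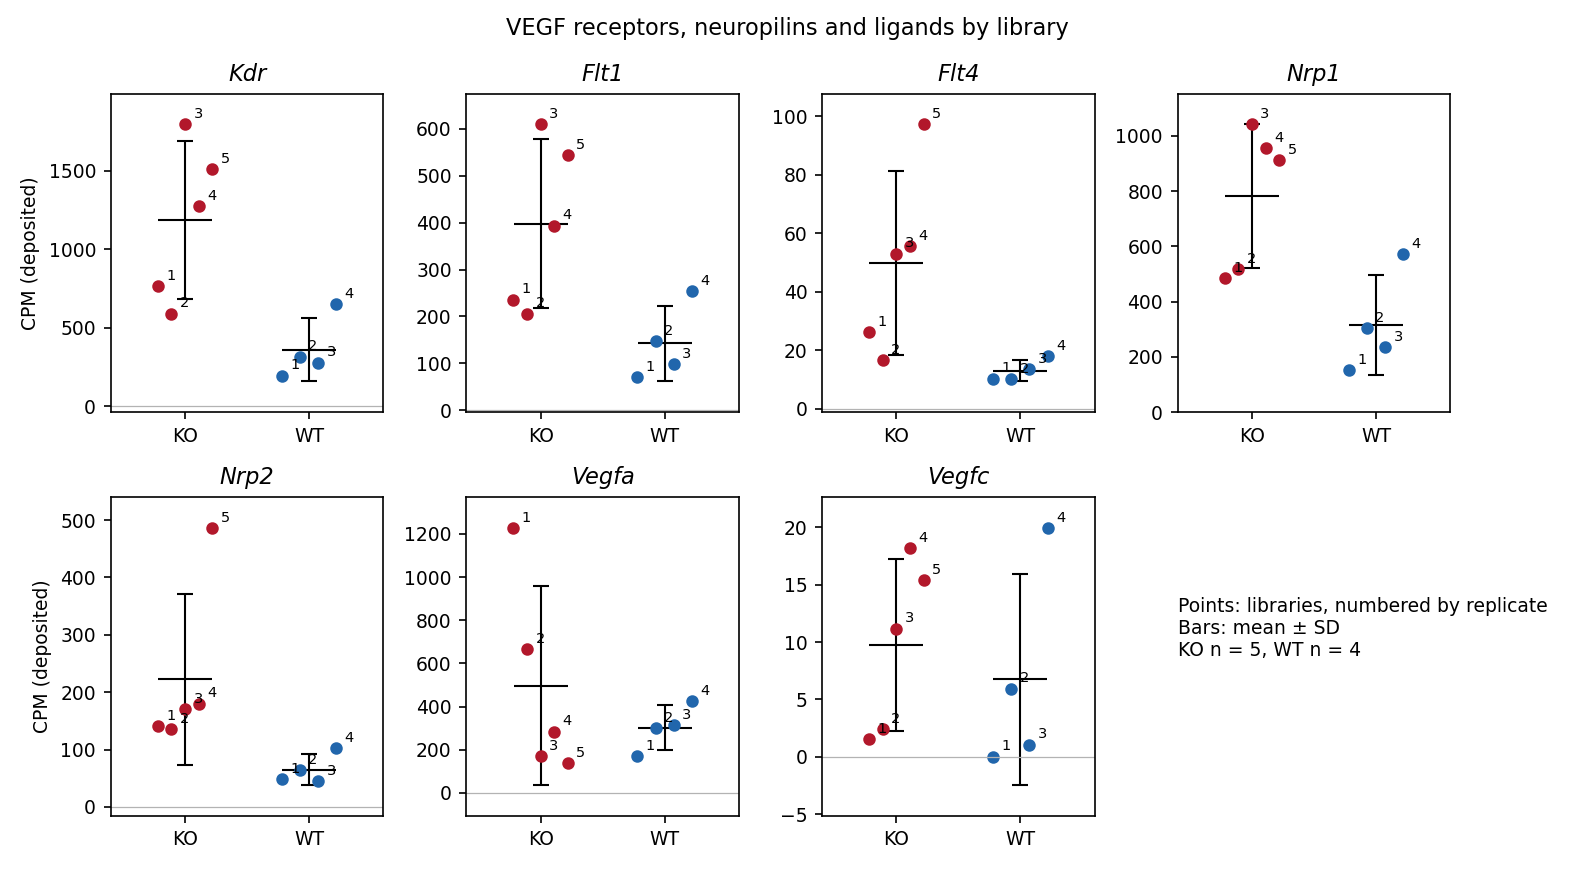
Deposited CPM of each measured VEGF gene in the 5 libraries labelled KO and the 4 labelled WT (points numbered by replicate, bars mean ± SD). Kdr, Flt1, Flt4, Nrp1 and Nrp2 lay mostly higher in KO, while Vegfa spanned 137 to 1228 CPM in KO and 170 to 426 CPM in WT.

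The co-receptor gene Nrp1, whose product strengthens VEGF-A signalling through VEGFR2, had 484, 517, 1043, 955 and 912 CPM in KO replicates 1 to 5, against 152, 305, 236 and 572 CPM in WT replicates 1 to 4. KO replicates 3, 4 and 5 exceeded all WT libraries, and KO replicates 1 and 2 lay between WT replicate 4 and the other WT libraries. Its log2 fold change was 1.40 (95% interval 0.55 to 2.25, limma adjusted p = 0.0168) in CPM and 0.42 (95% interval −0.17 to 1.02, adjusted p = 0.591) on the relative scale. The Nrp2 gene, best known from veins and lymphatic vessels, had 141, 135, 170, 180 and 486 CPM in the libraries labelled KO and 48.6, 63.7, 44.7 and 103 CPM in those labelled WT. It was the only member with all 5 KO libraries above all 4 WT libraries in CPM, an arrangement found in 18.7% of all genes, and on the relative scale no member had it, against 2.07% of all genes. Its log2 fold change was 1.65 (95% interval 0.81 to 2.49, limma adjusted p = 0.00789) in CPM and 0.68 (95% interval 0.02 to 1.34, adjusted p = 0.413) on the relative scale. KO replicate 5, which held the highest Nrp2 level, also held 6302 CPM of 6 skeletal muscle markers summed, against 193 to 518 CPM in the other KO libraries and 39.6 to 108 CPM in the WT libraries. The part of that tissue in the Nrp2 level was not tested, and without KO replicate 5 the Nrp2 log2 fold change in CPM was 1.33 (limma adjusted p = 0.0342). Of the annotated genes that overlap Nrp1 (1 gene) and Nrp2 (2 genes), none is among the genes used here. The other 5 members overlap no annotated gene. In GRCm38, Kdr lies at chr5:75932827-75978458, Flt1 at chr5:147561604-147726011 and Vegfa at chr17:46016993-46032369, all on the minus strand. On the plus strand lie Flt4 at chr11:49609263-49652739, Nrp1 at chr8:128358604-128503363, Nrp2 at chr1:62703285-62818695 and Vegfc at chr8:54077606-54187096.

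The 5 calls moved with the scaling of the libraries and with single libraries. When the share of mitochondrial rRNA entered the fit none of the 5 was called (log2 fold changes in CPM of 0.44 for Nrp1 to 1.00 for Flt4), nor when the mean of the adipocyte list did (1.21 for Nrp1 to 1.68 for Nrp2), settings in which 16 and 5 genes in all were called higher. Without WT replicate 1 only Kdr and Nrp2 were called. Nrp1 also lost its call without WT replicate 3 (limma adjusted p = 0.0515) or KO replicate 3 (0.0522), and Flt4 without KO replicate 5 (0.0643).

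Set against the endothelial identity genes in place of the library median, none of the receptors and neuropilins was called, and every interval included 0. The log2 fold changes on that scale were 0.39 for Kdr (95% interval −0.18 to 0.96), 0.15 for Flt1 (−0.40 to 0.69), 0.28 for Flt4 (−0.55 to 1.11), 0.04 for Nrp1 (−0.51 to 0.59) and 0.29 for Nrp2 (−0.39 to 0.98), with limma adjusted p from 0.635 to 0.974.

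**Figure D2:**
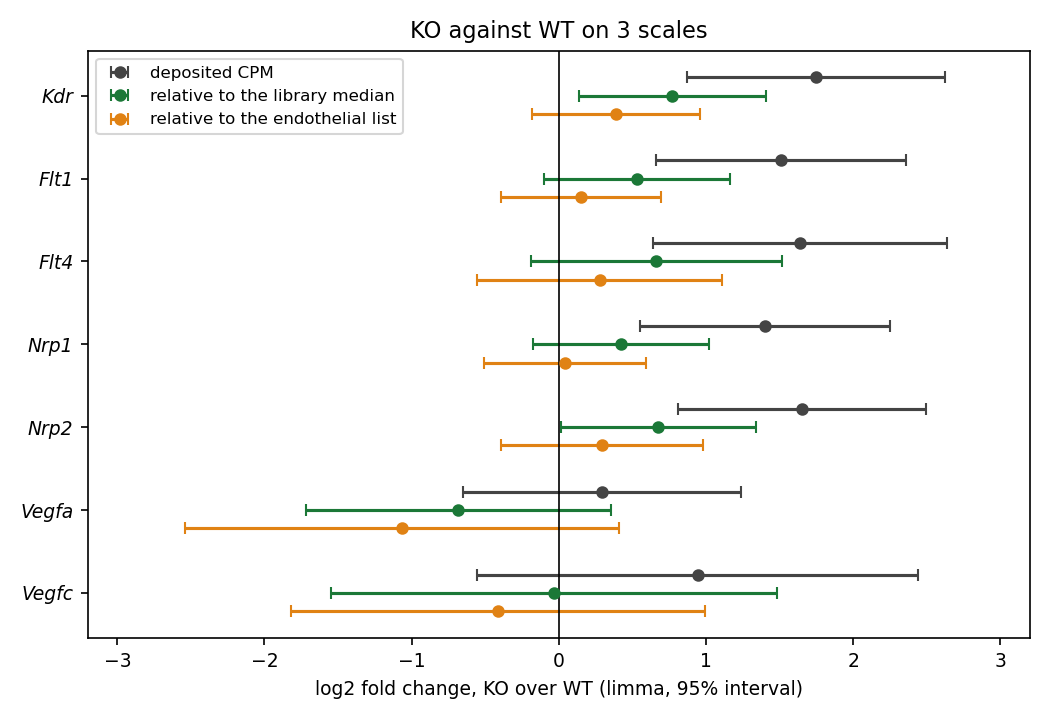
The log2 fold change of each member, KO over WT, with its 95% interval from limma, in deposited CPM, relative to the library median and relative to the mean of the endothelial identity list. Intervals of Kdr, Flt1, Flt4, Nrp1 and Nrp2 exclude 0 in CPM (from 0.55 upward), those of Kdr and Nrp2 also do relative to the median, and none does relative to the endothelial list.

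Vegfa, the main ligand of the pathway, did not pass the test between the groups, and its spread was wider among the libraries labelled KO, a difference in spread that was not itself tested. It had 1228, 666, 171, 284 and 137 CPM in KO replicates 1 to 5, against 170, 301, 314 and 426 CPM in WT replicates 1 to 4. KO replicates 1 and 2 lay above every WT library, KO replicate 5 lay below every WT library, and KO replicates 3 and 4 fell within the WT range. The coefficient of variation was 92.4% in KO (n = 5) and 34.6% in WT (n = 4). On the relative scale the SD was 1.46 log2 units in KO around a mean of 4.03, and 0.16 in WT around a mean of 4.71, and KO replicates 3, 4 and 5 (2.94, 3.65 and 2.47) lay below every WT library (4.55 to 4.91). The log2 fold change was 0.29 in CPM (95% interval −0.65 to 1.24, limma adjusted p = 0.594) and −0.68 on the relative scale (95% interval −1.72 to 0.35, adjusted p = 0.624), so its direction turned with the scaling. An exact two-sided permutation test of the CPM gave p = 0.532.

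The summed adipocyte markers ranked the libraries only in part as Vegfa did, and single markers differed in their order. The 12 adipocyte markers summed to 4609, 1880, 3086, 2201 and 3321 CPM in KO replicates 1 to 5, against 1262, 2659, 2483 and 1876 CPM in WT replicates 1 to 4. KO replicate 1 held the highest value of both, but KO replicate 2, second for Vegfa, had the lowest adipocyte sum of the KO libraries. Of the single markers, Lipe had 989, 494, 387, 395 and 262 CPM in KO replicates 1 to 5, the order of Vegfa there. Plin4 instead was highest in KO replicate 5 (1471 CPM), and Fasn was lowest in KO replicate 2 (183 CPM). Lipe, Plin4 and Fasn were named after their values were seen. Relative to the library median, the adipocyte list averaged 2.87, 2.02, 2.43, 1.94 and 1.85 log2 units in KO replicates 1 to 5, against 2.64, 3.07, 2.83 and 2.05 in WT replicates 1 to 4, so that KO replicate 5 was lowest for both the list and Vegfa. The part of adipocyte RNA in the Vegfa level was not tested beyond the adipocyte covariate, under which the Vegfa log2 fold change in CPM was −0.20 (limma adjusted p = 0.830).

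Vegfc, the ligand of VEGFR3, was near the limit of the counts, with 5, 5, 31, 31 and 60 reads in KO replicates 1 to 5 and 0, 15, 2 and 21 reads in WT replicates 1 to 4. The corresponding levels were 1.52, 2.39, 11.2, 18.2 and 15.4 CPM in the libraries labelled KO, against 0, 5.93, 1.05 and 20.0 CPM in those labelled WT. A count of 0 in WT replicate 1 allows up to 1.35 CPM, counting error only. All KO values lay inside the range of the WT values, and the log2 fold change was 0.95 (95% interval −0.55 to 2.44, limma adjusted p = 0.282) in CPM and −0.03 (95% interval −1.55 to 1.48, adjusted p = 0.993) on the relative scale.

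Ratios of 2 members within the same library, taken as (CPM + 1) over (CPM + 1), hardly depend on how the library was scaled, and 6 of them were compared by exact two-sided permutation over the 126 assignments of the libraries, with Benjamini-Hochberg adjustment over the 6. None passed after adjustment. The log2 ratio of Flt1 to Kdr was −1.690, −1.514, −1.560, −1.693 and −1.475 in KO replicates 1 to 5, against −1.447, −1.098, −1.480 and −1.360 in WT replicates 1 to 4. All KO libraries but replicate 5 lay below all WT libraries, and the mean log2 ratio was 0.24 lower in KO (exact permutation p = 0.0238, adjusted p = 0.143). The ratio of Nrp1 to Kdr was 0.635, 0.876, 0.581, 0.749 and 0.604 in the libraries labelled KO, against 0.781, 0.966, 0.853 and 0.877 in those labelled WT. Here KO replicate 2 alone lay within the WT range, and the log2 difference was −0.35 (exact permutation p = 0.0476, adjusted p = 0.143). In CPM, Kdr was thus the member of this trio with the largest fold change, but the difference between Kdr and its partners did not pass the adjusted test.

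Flt4 to Kdr did not separate the groups, with geometric means of 0.0392 in KO and 0.0422 in WT (log2 difference −0.11, exact permutation p = 0.738). Neither did Nrp2 to Nrp1, at 0.264 in KO and 0.221 in WT (log2 difference 0.25, exact permutation p = 0.571), where KO replicate 5 had the highest ratio of all 9 libraries at 0.534. The ratio of ligand to receptor, Vegfa to Kdr, was 1.61, 1.13, 0.0958, 0.223 and 0.0912 in KO replicates 1 to 5, against 0.873, 0.955, 1.13 and 0.653 in WT replicates 1 to 4. KO replicates 3, 4 and 5 lay below all WT libraries, KO replicate 1 lay above them all, and KO replicate 2 was level with WT replicate 3. The log2 difference was −1.45 (exact permutation p = 0.190, adjusted p = 0.381). For Vegfc to Vegfa, where the low Vegfc counts set the precision, the log2 difference was 0.65 (exact permutation p = 0.651).

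**Figure D3:**
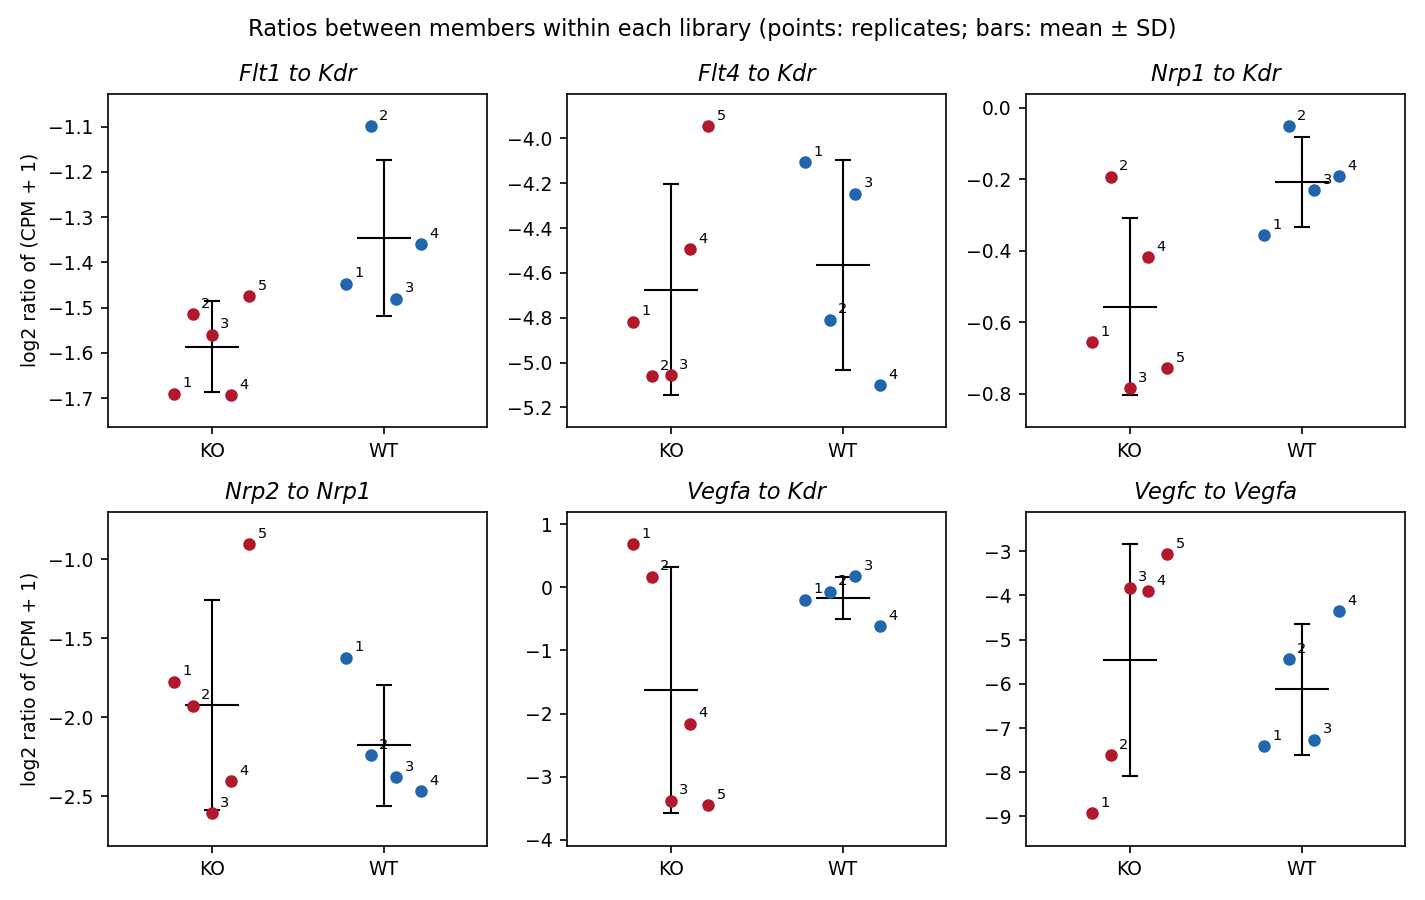
The log2 ratio between 2 members within each library, KO (5 points) and WT (4 points), with mean ± SD. Flt1 to Kdr and Nrp1 to Kdr lay lower in KO by 0.24 and 0.35 on average without passing the adjusted test, and Vegfa to Kdr spread from −3.46 to 0.69 in KO and from −0.62 to 0.18 in WT.

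Across the 9 libraries Kdr, Flt1 and Nrp1 varied together and Vegfa varied against them. On the relative scale Pearson's r was 0.95 between Kdr and Flt1, 0.91 between Kdr and Nrp1 and 0.93 between Flt1 and Nrp1. Kdr had an r of 0.77 with Flt4 and 0.61 with Nrp2, and Flt4 and Nrp2 had 0.76 with each other. Vegfa had negative values with all 5, from −0.70 with Nrp2 to −0.89 with Flt4. By rank (Spearman's rho) these were weaker, from −0.57 with Nrp2 to −0.79 with Flt4. These are descriptions over 9 points that share the library median, the depth of each library and the difference between the groups. The 16 endothelial identity genes had mean relative log2 values of 2.45, 2.67, 3.40, 3.21 and 3.36 in KO replicates 1 to 5, against 2.48, 2.77, 2.38 and 2.91 in WT replicates 1 to 4. KO replicates 3, 4 and 5, the libraries with the highest Kdr and the lowest Vegfa among KO, were thus also the 3 highest in the endothelial list. The part of endothelial RNA content in these patterns was not tested beyond the scale set on that list.

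**Figure D4:**
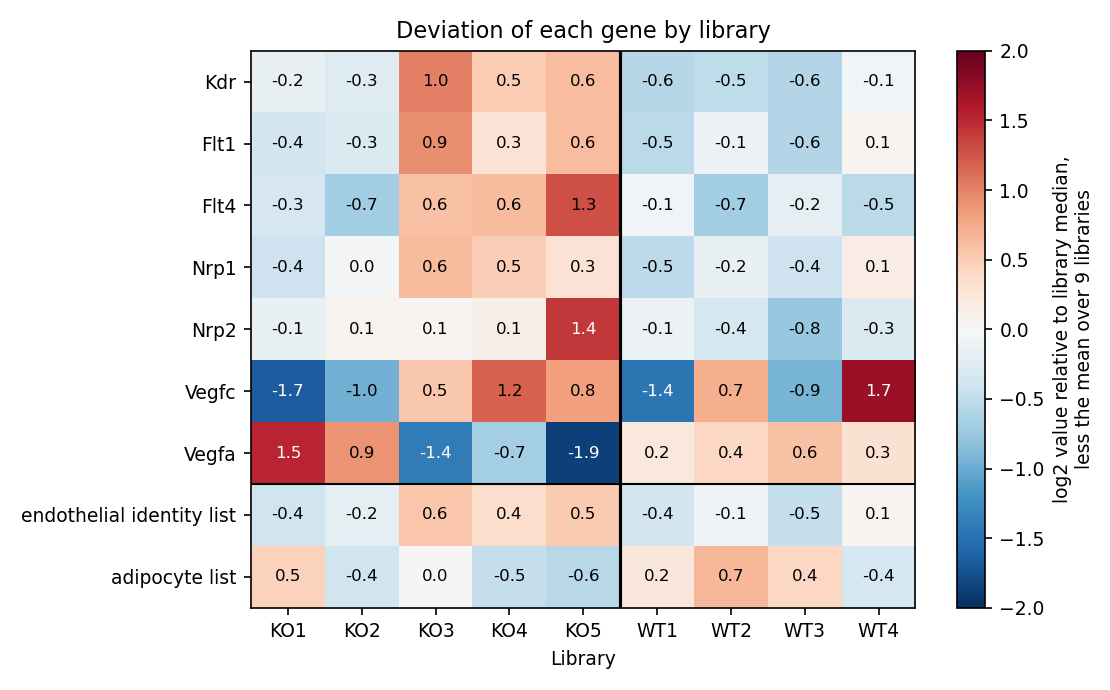
Deviation of each member from its own mean over 9 libraries, in log2 units relative to the library median, with the means of the endothelial identity and adipocyte lists below (KO libraries left of the line, WT right). KO replicates 3, 4 and 5 are above the mean for Kdr, Flt1, Flt4 and Nrp1 and below it for Vegfa, while KO replicates 1 and 2 are above it for Vegfa, with relative log2 values of 5.85 and 5.23.

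The genes most like each member in pattern were looked up among 7012 genes with a mean of at least 10 CPM (7013 for Vegfc), by Pearson's r of the relative log2 values over the 9 libraries. For Kdr they were the zinc exporter gene Slc30a1 (r = 0.97), Epas1, which encodes the hypoxia factor HIF-2α (0.97), and the membrane glycoprotein gene Cd200 (0.96). For Flt1 they were Tspan13 (0.99), Ptprb, the phosphatase gene of VE-PTP (0.98), and the catenin gene Ctnnb1 (0.97). Nrp1 was followed most closely by Cnbp (0.99), by Cd300lg, a capillary endothelial receptor gene (0.98), and by Hsd17b11 (0.96). For Nrp2 the 3 genes were Pcdh1 (0.98), Wwtr1, which encodes the coactivator TAZ (0.97), and Ralb (0.96). For Flt4 they were Lzts1 (0.98), Gmnn (0.95) and Kitl, the gene of KIT ligand (0.94). For Vegfa they were the splicing coactivator gene Srrm1 (0.97), the LIM-domain-binding gene Ldb1 (0.97) and Akap8l (0.97), a gene of a nuclear protein. Akap8l had 1021, 372, 116, 176 and 67.9 CPM in KO replicates 1 to 5, against 172, 291, 332 and 371 CPM in WT replicates 1 to 4. Vegfc, with few reads, was closest to Sfxn3 (0.97), Slc37a3 (0.94) and Tmem30a (0.93). Each is the top of all genes compared, and these values are a description with no test.

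Other genes of the pathway showed the same contrast between the scales. Of 45 measured signalling genes downstream of the VEGF receptors, 24 rose in CPM (limma), beside 32.0% of all genes, and none fell. None passed on the relative scale (2 of 45 had an unadjusted p under 0.05, both higher, beside 5.99% of all genes higher). The median log2 fold change there was 0.20 beside 0.12 over all genes. Among them was Ppp3cb, a catalytic subunit gene of calcineurin. It had 33.7 ± 8.53 CPM in KO (SD, n = 5) and 6.32 ± 1.61 CPM in WT (SD, n = 4). Its groups did not overlap in CPM, with KO the higher, as for 8 of the 45 genes and 18.7% of all genes. The relative log2 fold change of Ppp3cb was 1.26 (limma adjusted p = 0.240). Its regulatory partner Ppp3r1 had a relative log2 fold change of 1.35 (adjusted p = 0.405). Plcg1, the phospholipase that VEGFR2 activates directly, and Nos3, the endothelial nitric oxide synthase, rose in CPM (log2 fold changes of 1.27 and 1.17, limma adjusted p = 0.0200 and 0.0447) and had relative values of 0.29 and 0.20. Both were named after their values were seen.

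Of 26 genes whose products bind, traffic or dephosphorylate VEGF receptors, 16 rose in CPM, beside 32.0% of all genes, and none fell. None passed relative to the library medians (median 0.46), where 7 were higher and 2 lower at an unadjusted p under 0.05, beside 5.99% and 5.69% of all genes. The recycling GTPase gene Rab11a had 36.1 ± 24.3 CPM in KO (SD, n = 5) and 5.90 ± 3.79 CPM in WT (SD, n = 4), and its log2 fold change on the relative scale was 1.35 (limma adjusted p = 0.250). Itgav, the integrin alpha-v gene, Clec14a, an endothelial C-type lectin gene, and Efnb2, which encodes the ephrin that promotes VEGF receptor uptake, had relative log2 fold changes of 1.34, 1.11 and 1.02 (adjusted p = 0.306 to 0.316). All 4 rose in CPM. The 2 genes lower at an unadjusted p under 0.05 were Rab5a and Myo6. Their relative log2 fold changes were −0.781 and −0.655 (limma adjusted p = 0.319 and 0.361), and neither was called in CPM (limma adjusted p = 0.700 and 0.493). Rab5a and Myo6 were named after their values were seen. In the list of semaphorins and plexins that share the neuropilins, 7 of 12 genes were measured, of which 5 rose in CPM, beside 32.0% of all genes. None passed on the relative scale (median 0.51, with 2 of 7 higher at an unadjusted p under 0.05, beside 5.99% of all genes). Sema3g, an endothelial semaphorin gene, had 130, 219, 516, 384 and 699 CPM in KO replicates 1 to 5, against 44.6, 107, 46.8 and 139 CPM in WT replicates 1 to 4, with only KO replicate 1 inside the WT range. Its relative log2 fold change was 1.16 (limma adjusted p = 0.231), and that of Sema3f was 0.94 (adjusted p = 0.344).

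Genes known to be induced by VEGF in endothelial cells gave 10 of 17 measured genes that rose in CPM, beside 32.0% of all genes, and none that fell. None was called on the relative scale (median 0.53, with 4 of 17 higher at an unadjusted p under 0.05, beside 5.99% of all genes). Vcam1, a leukocyte adhesion molecule gene, had 52.5, 53.0, 111, 76.7 and 82.6 CPM in the libraries labelled KO, against 8.55, 10.7, 20.0 and 28.5 CPM in those labelled WT. The groups did not overlap in CPM, with KO above WT as in 6 of the 17 genes and in 18.7% of all genes. The relative log2 fold change of Vcam1 was 1.20 (limma adjusted p = 0.153). Klf2, a flow-responsive factor gene, Ets1 and the protease gene Adamts1 had relative values of 0.75, 0.76 and 0.76 (adjusted p = 0.346 to 0.380). Of 10 measured regulators of Vegfa, 6 rose in CPM, beside 32.0% of all genes, and none passed on the relative scale (median 0.31, with 2 of 10 higher at an unadjusted p under 0.05, beside 5.99% of all genes). The oxygen sensor genes Egln2 and Egln1, whose products mark hypoxia factors for destruction, led them with relative log2 fold changes of 1.37 and 0.95 (limma adjusted p = 0.273 and 0.342).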

How the data were processed

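RNA bound to HA-tagged ribosomes was sequenced from white adipose tissue in 5 libraries labelled KO and 4 labelled WT. Per the labels' protocols, tissue was homogenised, ribosomes were captured with an antibody to HA, and cDNA was made with a low-input kit and tagmented, which does not keep the strand. The authors deposited CPM, with columns that summed to between 946406 and 990292. HISAT2 2.1.0, Trimmomatic 0.39, edgeR 3.32.0 (R 4.0.2), FastQC 0.11.9 and the builds mm10 and GRCm38 appear in the submitters' processing notes, with no role or order. The read counter was not given in the sources used here. Whole reads were recovered from the CPM steps, and at least 99.97% of nonzero values came out whole within 0.1 read.

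Symbols, exon lengths and positions were taken from GENCODE M21 (GRCm38), which named 11787 genes and left 15 without a symbol. Genes were tested on log2(CPM + 1) by limma 3.58.1 under R 4.3.3, the prior variance following mean expression, a scale on which fold changes understate those of low genes, in genes with a mean CPM of at least 1 (all 11802), and adjusted over all of them. Single values and ratios used exact permutation of the 9 libraries, whose smallest possible p is 0.00794. Intervals and floors (3 reads) cover counting error only where they come from reads. Levels between genes were compared per kb. The alternatives were other pseudocounts and filters, limma without trend, a replicate block, covariates, quantile normalisation, centring on the endothelial list, edgeR 4.0.16 and DESeq2 1.42.0 on whole reads, and each library left out.

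Members and lists were chosen with earlier results of these data known. The genes named were the members, up to 4 genes of each pathway list with the smallest relative p where that was under 0.05 unadjusted, and the 3 genes most like each member. Plcg1, Nos3, Rab5a, Myo6, Lipe, Plin4 and Fasn were named in addition, after their values were seen.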

Additional observations from a re-analysis of the deposited data

Results flagged for a closer look

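Nrp2 in KO replicate 5, at 486.41 CPM, stood apart from the other libraries labelled KO, which had 135 to 180 CPM. The gap to the nearest of them was 0.873 of the group's range, above Dixon's 95% critical value for 5 samples. It was the 1 value so marked among 26 groups of member levels and ratios examined, and chance marks about 1 group in 20. The same library held the highest Flt4 level and the highest sum of skeletal muscle markers (6302 CPM, against at most 518 CPM in any other KO library).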

How the results depend on the processing

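In the deposited CPM, 5 members were called higher under both other pseudocounts, both filters and limma without trend. The number was 0 when the mitochondrial rRNA share or the adipocyte mean entered as a covariate. Leaving out 1 library gave 2 to 5 members. No member was called relative to the library median under any of the alternatives run, edgeR and DESeq2 included. The 3780 genes called higher in CPM became 1932 with the replicate block, 16 with the rRNA covariate, 5 with the adipocyte covariate and 1094 (without WT replicate 1) to 5916 (without WT replicate 4) with 1 library left out. The 24 called lower became 10 without trend, 8 with the block, 2 and 0 with those covariates and 7 to 23 with 1 library left out. Relative to the median, 4 genes were called higher and 9 lower. Higher and lower calls were 2 and 2 at a pseudocount of 0.5, 3 and 2 among genes averaging 5 CPM or more, 0 and 0 without trend, with the rRNA covariate or centred on the endothelial list, 8 and 30 with the block, 1 and 2 with the adipocyte covariate, 4 and 5 with quantile normalisation, 1 and 4 in edgeR and 31 and 124 in DESeq2. Leaving out 1 library gave 0 to 21 higher and 0 to 106 lower. Unless a value shows it, the cause was not tested.

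Directions that turned belonged to uncalled values. The log2 fold change of Vegfa in CPM (0.29) became −0.039 with the rRNA covariate, −0.20 with the adipocyte covariate and −0.15 to 0.63 with 1 library left out. That of Vegfc in CPM (0.95) became −1.35 with the rRNA covariate, and its relative value (−0.03) became 0.18 at a pseudocount of 0.5 and −0.52 to 0.54 with 1 library left out. The log2 ratio of Flt4 to Kdr ran from −0.29 to 0.044 and that of Nrp2 to Nrp1 from −0.0006 to 0.44 with 1 library left out. Flt1 to Kdr passed at a pseudocount of 5 (−0.26, exact permutation, adjusted p = 0.0476). With the longest transcript as the length, 4 of the 7 members kept their place in the order of KO levels.

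Replicate numbers did not pair the libraries (correlations of same-numbered deviations from −0.040 to 0.039). KO replicate 5 has no WT replicate of its number, so the block leaves it out of the estimate. With the block 4 of the 7 members were called higher in CPM, and Flt4 was not (limma adjusted p = 0.0618). The planned ratio of Vegfb to Vegfa was not run. The depth limits Vegfc and Flt4 most, which had at most 60 and 378 reads in a library.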
